A study of Mus musculus with 3 samples.

Results

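The T cell receptor is read out inside the cell by a small set of proteins, and the mRNAs of 9 of them were followed here through the 3 culture media of the study. They were chosen by gene symbol (Cd3d, Cd3e, Cd3g, Cd247, Cd4, Lck, Zap70, Lat and Ptprc), and all 9 had 1 row each among the 23282 rows of the expression table and passed the filter on low values. The CD4 T cells came from the spleen and lymph nodes of mice labelled C57BL/6 (C57BL/6 J in the study's methods), female and 6 to 8 weeks old by the same methods, with no genetic change, isolated with magnetic beads or by sorting, and all were stimulated for 72 h with 2 µg/ml each of anti-CD3 and anti-CD28. They were cultured in complete medium (CM, RPMI with serum), in dialyzed medium (DM, made from RPMI without amino acids and dialyzed serum) or in DM to which 30 µM methionine was added (DM+Met). By the study's own measurement, DM was not free of methionine. The study looked into how the metabolism of the tumor surroundings shapes CD4 T cells with high PD-1, and a GEO sample stands for a medium and holds 2 numbered files, which were taken as 2 replicate libraries because the study describes 2 biological samples per medium. The stimulating antibodies bind products of the same genes and of Cd28 and were present in every library, so no library shows these genes in unstimulated cells.

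The T cell receptor itself has almost no cytoplasmic tail, and it signals through the CD3 chains (δ, ε and γ, from Cd3d, Cd3e and Cd3g) and the ζ chain (from Cd247), whose tyrosine motifs are phosphorylated on engagement. The kinase LCK, brought to the receptor by the co-receptor CD4, phosphorylates these motifs. The kinase ZAP-70 docks on them and phosphorylates the adaptor LAT, from which the calcium, Ras and NF-κB branches start. CD45, the phosphatase encoded by Ptprc, keeps LCK ready to act by removing its inhibitory phosphate. What follows are mRNA levels and not protein levels or signalling.

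Cd3g and Cd3d lie head to head on chromosome 9, with 1355 bp between their starts, and Cd3e lies in the same cluster of 40056 bp. On GRCm38 (GENCODE), Cd3g spans chr9:44969572-44980431, Cd3d chr9:44981786-44987339 and Cd3e chr9:44998740-45009627. Zap70 spans chr1:36761798-36782818, Ptprc chr1:138062861-138175708, Lck chr4:129548344-129573641, Cd4 chr6:124864692-124888221 and Lat chr7:126363824-126369570. The 250 bases upstream of the start of Cd3g (chr9:44980432-44980681, minus strand) and Cd3d (chr9:44981536-44981785, plus strand) are shown because Cd3g was called between DM and CM and its neighbour was not, and those of Zap70 (chr1:36761548-36761797, plus strand) and Lck (chr4:129573642-129573891, minus strand) because the 2 kinases act one after the other and only Zap70 was called. The sequences are from RefSeq on GRCm38.p6, are written 5′ to 3′ on the gene's strand, and end at the base before the start. Capitals mark 3 short motifs on either strand: an ETS core (AGGAAG or CTTCCT), a RUNX core (TGTGGT or ACCACA) and an E-box (CAGGTG or CACCTG).
Cd3g: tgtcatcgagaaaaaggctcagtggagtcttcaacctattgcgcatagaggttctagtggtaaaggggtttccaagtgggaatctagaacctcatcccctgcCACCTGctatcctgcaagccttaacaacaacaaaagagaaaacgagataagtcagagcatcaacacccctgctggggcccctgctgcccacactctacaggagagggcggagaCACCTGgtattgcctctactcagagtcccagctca
Cd3d: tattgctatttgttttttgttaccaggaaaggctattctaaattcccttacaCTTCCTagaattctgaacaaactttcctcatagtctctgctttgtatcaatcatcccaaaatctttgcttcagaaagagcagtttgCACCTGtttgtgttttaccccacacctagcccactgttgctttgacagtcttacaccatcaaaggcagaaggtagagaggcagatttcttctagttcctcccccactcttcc
Zap70: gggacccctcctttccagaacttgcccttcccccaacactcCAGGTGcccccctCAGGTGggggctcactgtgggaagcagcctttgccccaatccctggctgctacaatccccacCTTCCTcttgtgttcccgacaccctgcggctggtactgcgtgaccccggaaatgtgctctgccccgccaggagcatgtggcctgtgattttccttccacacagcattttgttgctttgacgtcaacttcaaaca
Lck: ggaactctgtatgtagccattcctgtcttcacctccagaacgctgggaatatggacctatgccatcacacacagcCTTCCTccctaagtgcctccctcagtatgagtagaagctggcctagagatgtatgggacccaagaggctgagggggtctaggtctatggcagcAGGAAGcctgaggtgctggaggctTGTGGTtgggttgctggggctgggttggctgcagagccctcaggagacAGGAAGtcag
The Cd3g window held 2 E-box matches and no ETS match, the Cd3d window 1 of each, the Zap70 window 2 E-box matches and 1 ETS match, and the Lck window 3 ETS matches and 1 RUNX match. RefSeq windows matched 8 of the 9 genes (not Cd4). Of these 8, 7 held the ETS core, 4 the E-box and 1 the RUNX core, and 1 (Ptprc) held TATAAA or TTTATA. Of all 32851 windows of this length, 29.5% held the ETS core, 17.2% the E-box, 14.0% the RUNX core and 12.4% the TATA letters. The matches are letters in a window and are not evidence of binding, and no motif overlapped another in the windows shown.

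The 9 genes were among the abundant mRNAs of these cells. Levels are given as log2(CPM + 1), where CPM is a gene's reads scaled to a library total that TMM corrects. The 3′ kit is meant to yield 1 read per transcript whatever its length, so levels of different genes can be set side by side roughly. How evenly the genes were captured was not checked, and the reads carry no molecular identifiers. Over the 6 libraries, Ptprc was the highest (mean log2 level 9.89) and Cd3g the lowest (6.60), which corresponds to percentiles 99.5 and 88.7 of the 12770 genes tested. Ptprc lay above Cd3d (8.81), and Cd3d above the other 7, without overlap between libraries. Cd247 (8.06) and Lck (8.05) overlapped, as did Lck and Cd4 (7.72). Cd4 lay above Lat (7.16) in all 6 libraries, and Lat, Cd3e (6.90), Zap70 (6.80) and Cd3g were not separated from their neighbours in the order. Zap70 stood at position 6 of the 9 in CM and at position 9 in both DM and DM+Met. Together the 9 genes took 0.225% to 0.307% of the reads of a library.

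Depth was 8504742 to 12377285 reads per library, and the 9 genes had between 500 and 12334 reads each in a library. The 45S ribosomal RNA precursor Rn45s took 31.0% to 38.3% of reads in CM and DM and 15.5% and 20.1% in DM+Met, and the TMM scaling factors of DM+Met (1.16 and 1.22) exceeded those of the other libraries (0.897 to 0.938). DM library 2 correlated with the DM+Met libraries across genes (r = 0.947 and 0.940) more closely than with DM library 1 (r = 0.919). DM library 1 was likewise slightly closer to the DM+Met libraries (r = 0.925 and 0.921) than to DM library 2. The CD4 label was checked against markers of other cells. Cd4 was at 162 to 278 CPM, while the 2 CD8 genes (Cd8a and Cd8b1) summed to 66.4 and 74.2 CPM in the CM libraries, 34.2 and 24.4 in the DM libraries and 27.8 and 23.4 in those with methionine. The 8 B cell markers summed to 107 and 110 CPM in CM, 92.8 and 100.2 with DM and 68.3 and 80.5 with DM+Met, with Pax5 at 0 in every library. The 8 myeloid markers were lowest in CM (21.2 and 24.2 CPM, against 40.4 and 47.4 with DM and 38.3 and 51.2 with DM+Met). The 6 NK cell markers summed to 1.48 and 5.12 CPM in CM, 5.61 and 16.5 with DM and 11.1 and 20.4 with DM+Met. Genes of γδ receptors were not analysed here. In bulk RNA, fewer cells of a type and less RNA per cell cannot be told apart.

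**Figure D1:**
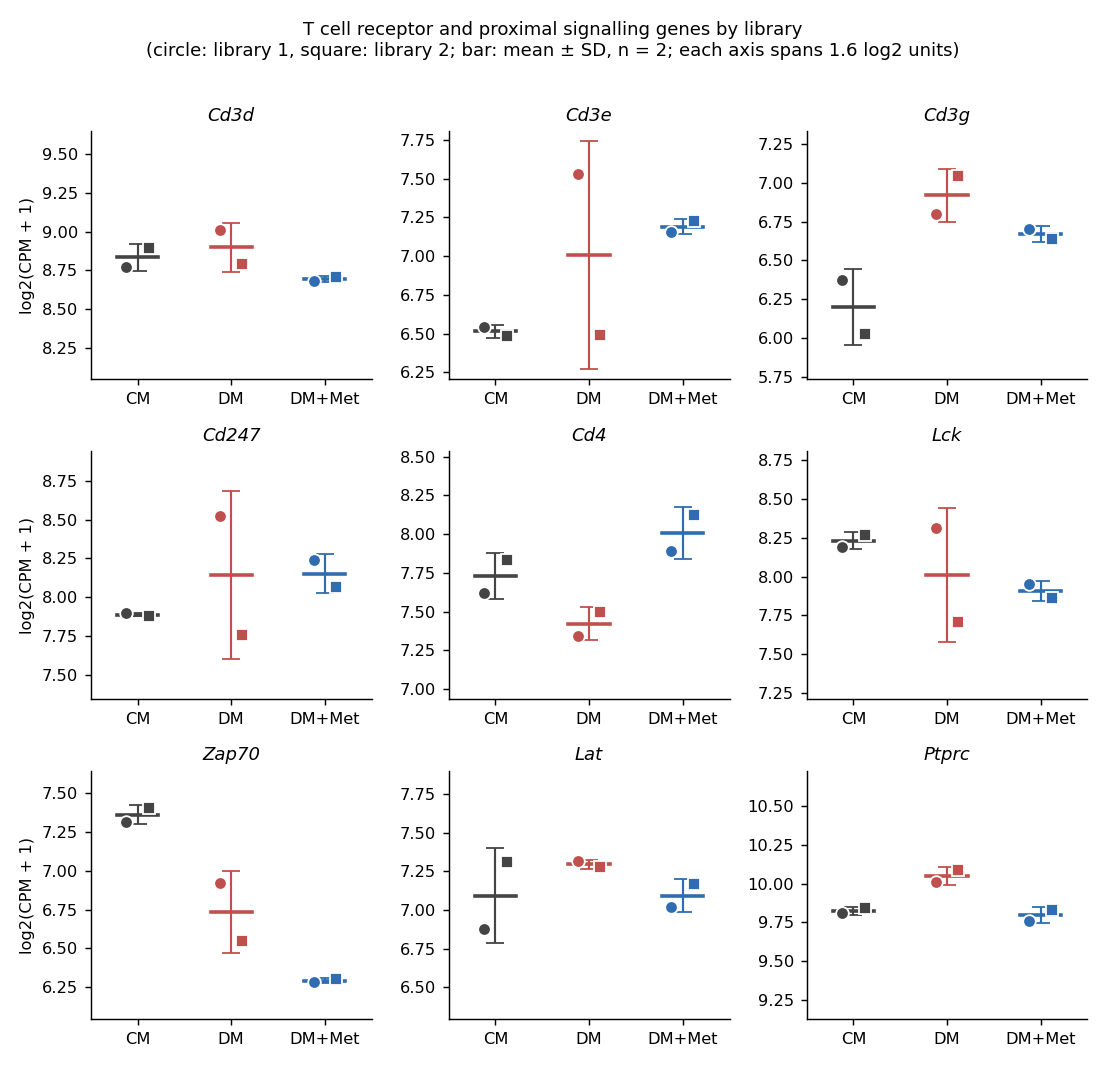
Levels of the 9 genes as log2(CPM + 1) on the vertical axis, by medium, with library 1 as a circle, library 2 as a square and bars for the mean ± SD (n = 2). Zap70 steps down from CM (7.32 and 7.41) to DM+Met (6.28 and 6.30), Cd3g is higher in DM than in CM, and the DM libraries of Cd3e, Cd247 and Lck lie far apart.

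The first comparison, DM against CM, addresses what the loss of nutrients changes. Of the 9 genes, 1 rose (Cd3g) and 1 fell (Zap70) at an adjusted p below 0.05 in limma, and the other 7 did not pass. Over all genes tested, 16.9% were called, 7.8% higher and 9.07% lower. The median log2 fold change of the 9 genes was 0.20, beside 0.07 over all genes, and 6 of the 9 had a positive sign. The CM and DM libraries did not overlap for 4 of the 9 (Cd3g and Ptprc higher, Cd4 and Zap70 lower), whereas 54.1% of all genes did not overlap. All p-values here rest on 2 libraries per medium.

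Of the CD3 and ζ chains, Cd3g alone passed the test in DM against CM, and the difference between the chains' changes was not tested. Cd3g, the γ chain, read 6.37 and 6.02 in the CM libraries, 6.80 and 7.04 in the DM libraries and 6.71 and 6.64 in those with methionine. Both DM libraries and both DM+Met libraries lay above both CM libraries. Cd3g rose 1.65-fold in DM against CM (log2 fold change 0.72, SE 0.20, 95% interval 0.28 to 1.17, limma adjusted p = 0.0349). It differed by 0.47 in DM+Met against CM (SE 0.20, adjusted p = 0.143), and in DM+Met against DM by −0.25 (SE 0.20, adjusted p = 0.756), neither past the threshold. The call in DM ended when any 1 of the 6 libraries was left out (adjusted p 0.0697 to 0.154, log2 fold change 0.55 to 0.90).

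Cd3d, the δ chain and the neighbour of Cd3g, was at 8.77 and 8.89 in the CM libraries, 9.01 and 8.79 in the DM libraries and 8.68 and 8.71 in those with methionine. The CM and DM libraries overlapped, and both DM+Met libraries lay slightly below the other 4. Its log2 fold change was 0.07 in DM against CM (SE 0.14, 95% interval −0.25 to 0.39, limma adjusted p = 0.787) and −0.14 in DM+Met against CM (adjusted p = 0.565). With library totals in place of TMM the latter turned to 0.26. A ratio of genes within a library does not depend on how libraries are scaled, and among the 36 ratios of the 9 genes, 3 were picked for display after their values were seen. The log2 ratio of Cd3g to Cd3d reads was −2.42 and −2.89 in the CM libraries, −2.22 and −1.75 in the DM libraries and −1.99 and −2.08 in those with methionine. Both dialyzed media lay above CM. There were thus 0.159 Cd3g reads per Cd3d read in CM (geometric mean), against 0.252 with DM and 0.244 with DM+Met.

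Cd3e, the ε chain which stimulating anti-CD3 antibodies commonly bind, was at 6.55 and 6.48 in the CM libraries, 7.53 and 6.49 in the DM libraries and 7.16 and 7.23 in those with methionine. DM library 1 was the highest of the 6 and DM library 2 lay between the CM libraries, with 1801 and 1006 reads. The DM libraries thus differed by 1.04 on the log2 scale, against 0.06 in CM and −0.07 in DM+Met (library 1 minus library 2). The log2 fold change in DM against CM was 0.50 (SE 0.29, 95% interval −0.15 to 1.14, limma adjusted p = 0.264) and rests on DM library 1. It was −0.0245 without that library and 1.02 (adjusted p = 0.0366) without DM library 2. The libraries of DM+Met and CM did not overlap, with a log2 fold change of Cd3e of 0.68 (SE 0.29, unadjusted p = 0.0403, limma adjusted p = 0.144). Fitted on those 2 media alone, which leaves out the spread of the DM libraries, the same difference had a limma adjusted p of 0.0307.

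Cd247, the ζ chain, was like Cd3e highest in DM library 1. It was at 7.90 and 7.88 in the CM libraries, 8.53 and 7.76 in the DM libraries and 8.24 and 8.06 in those with methionine. DM library 1 was the highest and DM library 2 the lowest of the 6. The log2 fold change was 0.25 in DM against CM (SE 0.23, 95% interval −0.25 to 0.76, limma adjusted p = 0.478), and it was −0.13 without DM library 1. It was 0.26 in DM+Met against CM (SE 0.23, adjusted p = 0.476), although both DM+Met libraries lay above both CM libraries. On GRCm38 the 3′ end of Cd247 (chr1:165788681-165877277, plus strand) overlaps Pou2f1 on the opposite strand, and the use of strand in counting is not given in the sources used here, so reads of the 2 genes may not have been told apart.

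Cd4, the co-receptor that carries LCK to the receptor, was at 7.62 and 7.84 in the CM libraries, 7.35 and 7.50 in the DM libraries and 7.89 and 8.13 in those with methionine. The DM libraries were the 2 lowest and the DM+Met libraries the 2 highest. Between DM and CM the log2 fold change was −0.31 (SE 0.17, 95% interval −0.68 to 0.06, limma adjusted p = 0.232). It was 0.28 in DM+Met against CM (SE 0.17, adjusted p = 0.299). Neither passed the threshold.

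Zap70, the kinase that docks on the phosphorylated receptor, had the largest difference of the 9 between DM+Met and CM. It was at 7.32 and 7.41 in the CM libraries, 6.92 and 6.55 in the DM libraries and 6.28 and 6.30 in those with methionine, which is 164 ± 7.18, 106 ± 19.7 and 77.3 ± 0.806 CPM (SD, n = 2). The 3 media did not overlap. Zap70 fell 1.55-fold in DM against CM (log2 fold change −0.63, SE 0.19, 95% interval −1.05 to −0.20, limma adjusted p = 0.0485). This call lies at the threshold and held in 4 of 17 alternatives, with adjusted p from 0.0390 to 0.183. It was kept without DM library 1 (−0.82) and ended without any 1 of the other 5 libraries (−0.67 to −0.44). The CD8 genes, whose cells also express Zap70, were likewise highest in CM (66.4 and 74.2 CPM against 24.4 and 34.2 in DM), with Cd8a called lower in DM by −1.72 (adjusted p = 0.0323). The part of the CD8 signal in the change of Zap70 was not tested.

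Lck, the kinase before ZAP-70, was at 8.19 and 8.27 in the CM libraries, 8.31 and 7.70 in the DM libraries and 7.95 and 7.86 in those with methionine. DM library 1 was the highest of the 6 and DM library 2 the lowest. The log2 fold change was −0.22 in DM against CM (SE 0.20, 95% interval −0.66 to 0.22, limma adjusted p = 0.480), and it turned to 0.0835 without DM library 2. Lat, the adaptor that ZAP-70 phosphorylates, was at 6.88 and 7.31 in the CM libraries, 7.32 and 7.28 in the DM libraries and 7.02 and 7.17 in those with methionine. The CM libraries of Lat spanned most of the range of all 6. Its log2 fold change was 0.20 in DM against CM (SE 0.19, limma adjusted p = 0.501) and 0.00 in DM+Met against CM (95% interval −0.42 to 0.42).

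Ptprc, which encodes CD45 and is made by all white blood cells, was at 9.81 and 9.84 in the CM libraries, 10.01 and 10.09 in the DM libraries and 9.76 and 9.83 in those with methionine. The DM libraries lay above the other 4, and the libraries of each medium differed by at most 0.08. The log2 fold change in DM against CM was 0.23 (SE 0.13, 95% interval −0.06 to 0.51, limma adjusted p = 0.253). Isoforms of CD45 differ in exons near the 5′ end of the mRNA, which a 3′ library does not read.

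**Figure D2:**
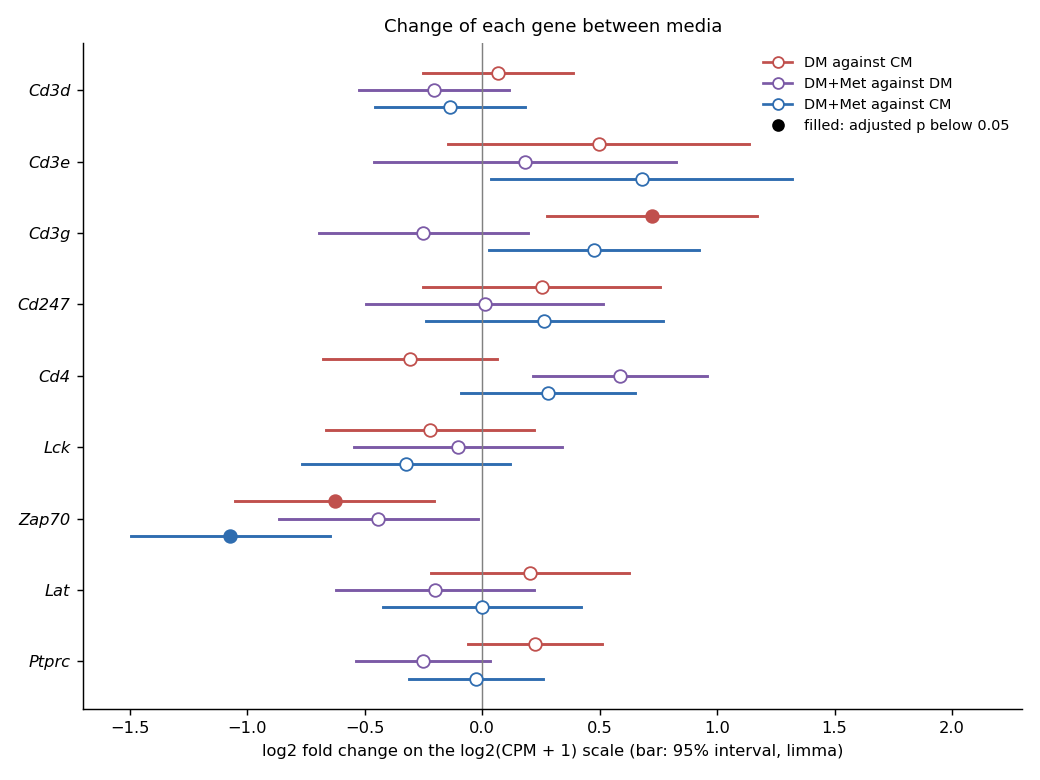
Log2 fold change of each of the 9 genes on the horizontal axis, with 95% intervals from limma, for DM against CM, DM+Met against DM and DM+Met against CM. Filled points, those with an adjusted p below 0.05, are Cd3g (0.72) and Zap70 (−0.63) in DM against CM and Zap70 (−1.07) in DM+Met against CM.

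The second comparison, DM+Met against DM, addresses what methionine changes when added to DM. None of the 9 genes was called by limma, 2 had an unadjusted p below 0.05, and limma-voom on the recovered reads called 0 as well. Over all genes tested, 0.0548% were called, 0.0392% higher and 0.0157% lower, so few genes of any kind passed. The median log2 fold change of the 9 genes was −0.20, beside 0.01 over all genes. The libraries did not overlap for 6 of the 9 (Cd4 higher, and Cd3d, Cd3g, Zap70, Lat and Ptprc lower), against 41% of all genes.

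Cd4 had the greatest difference, 1.50-fold higher with methionine (log2 fold change 0.59, SE 0.17, 95% interval 0.22 to 0.96, unadjusted p = 0.00558, limma adjusted p = 0.336). With library totals in place of TMM its adjusted p was 0.0486, on a scale on which the median of all genes moved to 0.34. Zap70 was 1.36-fold lower with methionine than in DM, the same sign as its change from CM to DM (log2 fold change −0.44, SE 0.19, 95% interval −0.87 to −0.02, unadjusted p = 0.0419, limma adjusted p = 0.493). Ptprc differed by −0.25 (SE 0.13, adjusted p = 0.572). The signs of Cd3d (−0.21), Cd3g (−0.25), Lck (−0.10), Lat (−0.20) and Ptprc turned positive with library totals. The within-library ratio of Cd4 to Cd3d, which needs no scaling, was −1.15 and −1.06 on the log2 scale in the CM libraries, −1.67 and −1.29 in the DM libraries and −0.79 and −0.59 in those with methionine. The 3 media did not overlap in this ratio, with 0.464, 0.358 and 0.620 Cd4 reads per Cd3d read.

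The third comparison, DM+Met against CM, uses the same CM libraries as the first. Of the 9 genes, Zap70 fell and no other passed, with 3 at an unadjusted p below 0.05 (Zap70, Cd3e and Cd3g). Over all genes, 15.3% were called, 6.92% higher and 8.36% lower. The libraries did not overlap for 7 of the 9, against 60.9% of all genes. The median log2 fold change was 0.00 for the 9 genes and 0.06 for all genes. With library totals in place of TMM, 4 of the 9 were called, 3 higher (Cd3e 1.07, Cd3g 0.86, Cd4 0.67) and Zap70 lower (−0.68). Over all genes on that scale, 2701 of 12770 were called, 2060 of them higher, and the median stood at 0.41.

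Zap70 was 2.10-fold lower in DM+Met than in CM (log2 fold change −1.07, SE 0.19, 95% interval −1.50 to −0.65, limma adjusted p = 0.00506). Zap70 passed in 10 of the 11 alternatives that kept every library, with log2 fold changes of −1.08 to −0.68. Its sign could turn only with other scalings, limma-voom, other pseudocounts or a CM or DM+Met library left out, and it was kept in each of these. The call ended without CM library 1 (0.0529), CM library 2 (0.0561), DM+Met library 1 (0.0976) or DM+Met library 2 (0.0985), with log2 fold changes of −1.12 to −1.03. Beside it, the CD8 genes summed to 66.4 and 74.2 CPM in CM and 27.8 and 23.4 in DM+Met, and their part in the change was not tested. Lck, which CD8 T cells also express, differed by −0.32 in the same comparison (SE 0.20, 95% interval −0.77 to 0.12, limma adjusted p = 0.313).

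The log2 ratio of Zap70 to Lck reads was −0.88 and −0.87 in the CM libraries, −1.40 and −1.17 in the DM libraries and −1.69 and −1.57 in those with methionine. The 3 media did not overlap. There were 0.546 Zap70 reads per Lck read in CM, against 0.411 with DM and 0.323 with DM+Met. Of the 36 within-library ratios of the 9 genes, 20 did not overlap between DM and CM, 11 between DM+Met and DM, and 28 between DM+Met and CM. Single genes, which are another measure, did not overlap in 54.1%, 41% and 60.9% of cases. The share among ratios of other genes was not computed, and the 36 ratios share the same 9 genes. These counts are therefore not read as a trait of the 9 genes.

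**Figure D3:**
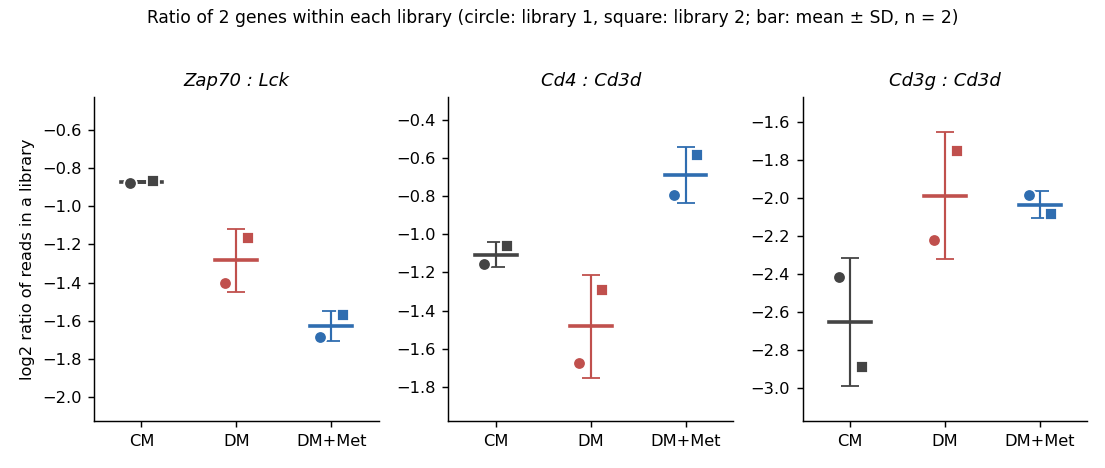
Log2 ratio of the reads of 2 genes within each library on the vertical axis, by medium, with library 1 as a circle, library 2 as a square and bars for the mean ± SD (n = 2). Zap70 to Lck falls from −0.87 in CM to −1.28 in DM and −1.63 in DM+Met, Cd4 to Cd3d is lowest in DM (−1.48) and highest in DM+Met (−0.69), and Cd3g to Cd3d is lowest in CM (−2.65).

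Of 64 other genes of the pathway, 61 were tested, and the constant regions Trac, Trbc1 and Trbc2 were not analysed here. In DM against CM, 16 of the 61 were called by limma, 13 higher and 3 lower, beside 16.9% of all genes. Their median log2 fold change was 0.12, beside 0.07 over all genes. Between DM+Met and CM, 18 were called, 10 higher and 8 lower, beside 15.3% of all genes. With library totals 25 were called, 22 higher and 3 lower, beside 2701 of all 12770 genes tested, 2060 of them higher. Both comparisons share the CM libraries, and 10 genes were called in both and 24 in either. After methionine, against DM, limma called 0 of the 61 (9 at an unadjusted p below 0.05) and limma-voom called 0. The counts of 16 and 18 fell with any library left out, as did the counts of calls over all genes.

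Among the other proximal kinases, 3 of 6 rose in DM and in DM+Met and none fell, beside 7.8% and 6.92% of all genes that rose. Fyn, the second Src family kinase of the receptor, rose by 1.47 in DM (SE 0.17, limma adjusted p = 8.78e-04) and by 1.27 in DM+Met. Txk, a kinase of the Tec family, rose by 1.08 in DM (adjusted p = 0.0142) and by 0.81 in DM+Met (adjusted p = 0.0467). Zap70 thus differed in sign from Fyn and Txk in both media. Markers of other cells did not move in 1 direction. Myeloid and NK cell markers were mostly higher than in CM, and B cell and CD8 markers mostly lower. Of the myeloid markers, all 8 had a positive sign in DM against CM and 1 was called (Lyz2, 2.13, limma adjusted p = 0.0355), and of the 3 NK cell markers tested, Klrb1c was called in DM+Met against CM (2.10, adjusted p = 0.0294). Of the 7 B cell markers tested, 2 had a positive sign in DM against CM, where Blnk was called lower (−2.05, limma adjusted p = 0.0253) and Cr2 higher (2.87, adjusted p = 0.0197). Cd22 was called lower in DM+Met against CM (−2.08, adjusted p = 0.0273). Both CD8 genes had a negative sign in both comparisons. The part of these other cells in the changes of the pathway genes was not tested. Beside 7.8% and 6.92% of all genes, 3 of the 7 co-receptors and surface modulators rose in DM and in DM+Met. These were Cd5 (1.42 in DM, adjusted p = 0.00591) and Cd6 (1.23), scavenger-type receptors that tune receptor signals, and Cd2 (0.84), an adhesion receptor. Cd28, which encodes the receptor of the other stimulating antibody and was named after its value was seen, fell by 0.53 in DM (limma adjusted p = 0.0490) and did not pass in DM+Met (−0.42, adjusted p = 0.110).

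Of the 16 adaptors, 2 rose and 1 fell in DM (18.75% called, beside 16.9% of all genes). Tespa1, an adaptor of the receptor in thymocytes, rose by 2.28 (limma adjusted p = 0.0223), with a difference of 1.67 without DM library 1 and 2.88 without DM library 2. Trat1, a transmembrane adaptor, had no read in either CM library and 18 and 73 reads in DM, and its mean level in DM was at least 11.4-fold higher, taken against 3 reads per CM library. This bound is 5.06-fold from DM library 1 alone and 17.8-fold from DM library 2 alone. Sh2d2a, which binds LCK, fell by 1.16 in DM (adjusted p = 0.00793) and by 1.28 in DM+Met. With methionine, against CM, Grap2, which joins LAT to SLP-76, rose by 0.80 and Nck1, a link to the cytoskeleton, fell (adjusted p = 0.0477). In DM against CM, Grap2 differed by 0.49 (limma adjusted p = 0.119) and Nck1 by −0.33 (0.478), neither past the threshold. Of the 15 phosphatases, ubiquitin ligases and other negative regulators, 1 rose in DM (Sla, 0.81), which is 6.67% called beside 16.9% of all genes. In DM+Met against CM, 1 rose and 4 fell (33.3% called, beside 15.3% of all genes). Ptpn22, a phosphatase that acts on LCK and ZAP-70, fell by 1.12 (adjusted p = 0.00489), Dok1 by 1.14, and Dgka, a diacylglycerol kinase, rose by 0.98. None of these passed in DM against CM, where Dok1 differed by −0.91 (limma adjusted p = 0.0680), Ptpn22 by −0.27 (0.379) and Dgka by 0.51 (0.155).

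Of the 17 effectors below LAT, 4 rose and 1 fell in DM (29.4% called, beside 16.9% of all genes). In DM+Met against CM, 2 rose and 2 fell (23.5% called, beside 15.3% of all genes). Malt1, the protease of the NF-κB branch, fell by 1.06 in DM (limma adjusted p = 0.00807) and by 1.46 in DM+Met (adjusted p = 0.00152). Itpr2, an inositol trisphosphate receptor that releases calcium, rose by 1.24 and 1.37. Orai1, the calcium channel of the plasma membrane, rose by 1.02 in DM and differed by 0.64 in DM+Met without passing (limma adjusted p = 0.105). Rasgrp1, which switches on Ras, rose by 0.70 in DM (limma adjusted p = 0.0288) and by 0.71 in DM+Met.

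**Figure D4:**
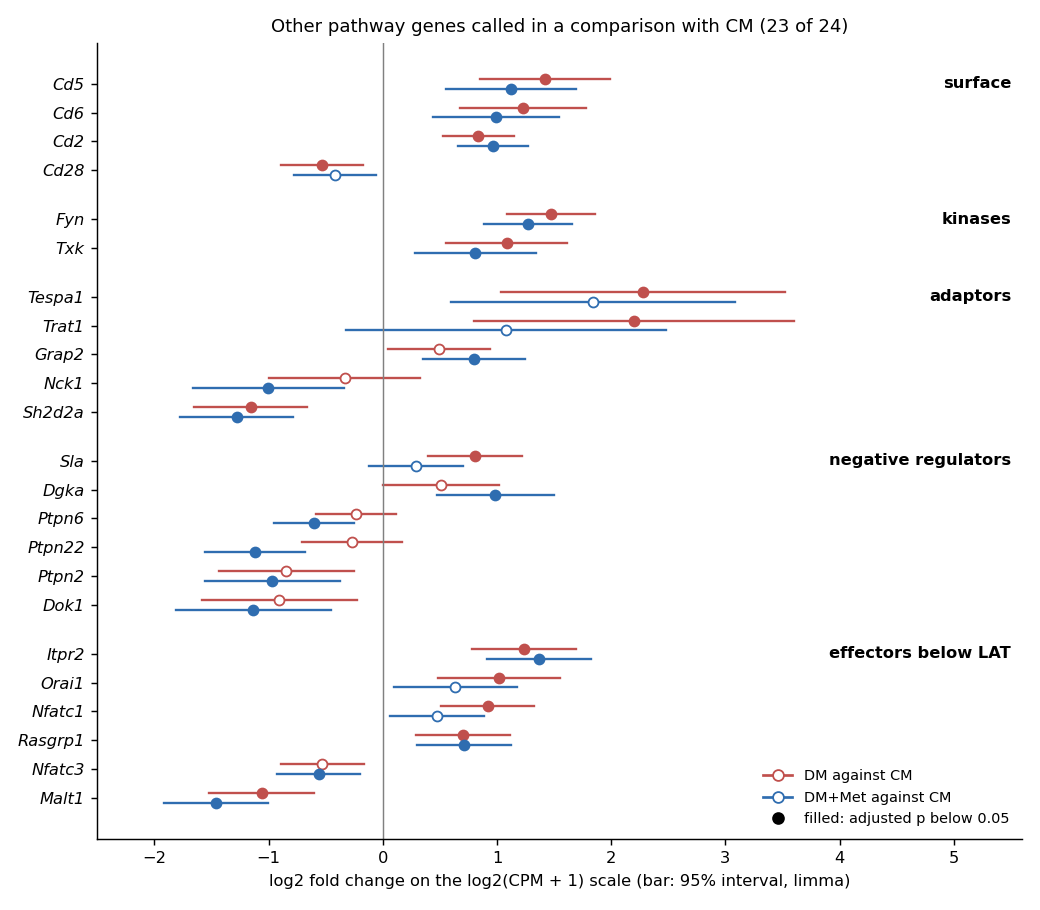
Log2 fold change with 95% intervals (limma) of 23 of the 24 other pathway genes called in DM against CM or in DM+Met against CM, grouped by role, with filled points for an adjusted p below 0.05. Fyn and Txk lie right of 0 in both comparisons, and Malt1 and Sh2d2a lie left of 0 in both.

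By the root mean square difference of centred log2 levels over the 6 libraries, the genes most like the mean of Cd3d, Cd3e and Cd3g were Prdx1 (0.037), Sf3b4 (0.041) and Pknox1 (0.050), where the median over all genes was 0.543. Those most like Cd247 were Nbeal2 (0.063), Mdp1 (0.069) and Mgat1 (0.070), with a median of 0.569. Nbeal2 was at 5.22 in DM library 1 and 4.62 in DM library 2, and so had the same order in the DM libraries as Cd247. None of these 6 is one of the 9 genes.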

How the data were processed

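RNA was sequenced with a 3′-end kit from 500 ng of total RNA in 6 libraries, 2 for each of 3 media. The authors deposited a log2 value per gene, which is log2(CPM + 1) after TMM scaling. Base and added 1 follow from equal steps in the values, and those steps gave the reads of each value (at least 99.776% within 0.1 of a whole number at up to 300 reads). The submitters' processing notes name Bowtie2, bedtools and mm10 without versions, and the counting settings, with the use of strand, are not given in the sources used here. Depth was 8504742 to 12377285 reads. A floor of 3 reads corresponds to a log2 value of 0.323 to 0.469 and covers counting error alone, as the reads carry no molecular identifiers. The libraries of a medium differed beyond sampling noise (chi-square per degree of freedom 18.2 to 35.9).

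Rows with at least 0.946 CPM (10 reads at the median depth) in 2 libraries and 15 reads in all were tested, which left 12770 of 23282. The 3 media entered 1 fit without covariates (lmFit, then eBayes with an intensity trend, limma 3.58.1, R 4.3.3). Tests were two-sided, with Benjamini-Hochberg adjustment over all rows tested and a threshold of 0.05. The planned test was written for this unit and was kept, and the script was checked on simulated data. On the log2(CPM + 1) scale, fold changes of genes with few reads are understated. The labels do not say that the libraries came from separate cultures, so p-values measure only the spread between these libraries, which may be technical.

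The 9 genes and the lists of other genes were chosen with earlier results of these data known. All 9 were named, and of the other pathway genes up to 3 called genes per group with the greatest change in each comparison with CM. A result for 1 called gene is not reported here. Likewise named were the 3 genes nearest in pattern to the CD3 mean and to Cd247, passing over predicted genes and immune receptor segments. Coordinates are from GENCODE M21 (GRCm38), the build of mm10, and upstream sequences from RefSeq. Figures were drawn with matplotlib. Alternatives were other scalings, filters, pseudocounts, priors and models, the file number as a block, and each library left out.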

Additional observations from a re-analysis of the deposited data

How the results depend on the processing

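With 2 libraries per medium, calls near the threshold depended on the settings. Under the 11 alternatives that kept every library, 270 of 297 values of the 9 genes kept their sign and their side of the threshold, 12 lost a call, 5 gained one and 10 turned in sign. Other filters, other priors, no trend, a fit on 2 media and the file number as a block leave a log2 fold change as it was. No sign could turn there, and Lat had no difference to turn in DM+Met against CM. The count of kept values is therefore no measure of how stable the signs are. Where no cause is stated, the cause was not tested.

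In DM against CM, the count of 2 called genes became 1 with library totals, library totals without Rn45s, a robust prior or a pseudocount of 0.1, and 0 with no filter, without the intensity trend or with only the 2 media in the fit. It was 0 to 1 with a library left out. The 16 pathway genes became 3 without the trend and 8 with only the 2 media in the fit, and 3 to 8 with a library left out. Between DM+Met and DM, library totals gave 1 called gene (Cd4), beside 55 over all genes (7 with TMM). For DM+Met against CM, the count of 1 became 4 with library totals, 0 without the trend and 2 with only the 2 media in the fit, and was 0 to 2 with a library left out. The 18 pathway genes became 11 with no filter and 2 without the trend, and were 1 to 14 with a library left out. A fit without a library, or on 2 media, has fewer residual degrees of freedom.

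Signs turned as follows. In DM against CM, with a library left out, Cd3d was −0.0445 to 0.180 (negative without DM library 1), Cd3e −0.0245 to 1.02 and Cd247 −0.13 to 0.638 (both negative without DM library 1), Lck −0.528 to 0.0835 (positive without DM library 2) and Lat −0.0135 to 0.418 (negative without CM library 1). Between DM+Met and DM, library totals gave Cd3d 0.16, Cd3g 0.11, Lck 0.26, Lat 0.16 and Ptprc 0.11, and library totals without Rn45s gave Cd247 −0.025. With a library left out, Cd3e was −0.34 to 0.703 (negative without DM library 2), Cd247 −0.374 to 0.394 (negative without DM library 2 and, at −0.078, without DM+Met library 1) and Lck −0.407 to 0.204 (positive without DM library 1). Between DM+Met and CM, library totals gave Cd3d 0.26, Lck 0.071 and Ptprc 0.37, and Ptprc was 0.094 with library totals without Rn45s and −0.063 to 0.0070 with a library left out (positive without DM+Met library 1).

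Scaling moved all genes together. With library totals the median log2 fold change of all genes was 0.09, 0.34 and 0.41 in DM against CM, DM+Met against DM and DM+Met against CM. Relative to that median, Zap70 in DM+Met against CM was −1.09, beside −1.13 with TMM.

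File numbers did not pair the libraries (correlations of deviations from the medium means −0.03 to 0.00). With the file number as a replicate block, 1 of the 9 genes was called in DM against CM (Cd3g), 0 in DM+Met against DM and 1 in DM+Met against CM. Over all genes, 1947, 7 and 1797 were called.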
